A study of Saccharomyces cerevisiae with 6 samples.

Results

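The mitochondrial genome of budding yeast encodes 8 proteins, and all 8 of their genes were followed here: COX1, COX2 and COX3, the catalytic core of cytochrome c oxidase; COB, the cytochrome b of the bc1 complex; ATP6, ATP8 and OLI1, membrane subunits of the ATP synthase; and VAR1, a protein of the small subunit of the mitochondrial ribosome. They were taken by name among the open reading frames (ORFs) of the mitochondrial genome and make up 8 of 19 mitochondrial ORFs and 8 of 5791 ORFs in all. The other 11 mitochondrial ORFs lie mostly inside introns, and their values are given only where they help to read a member.

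Total RNA was sequenced from Saccharomyces cerevisiae after removal of ribosomal RNA. Wild-type cells (MATα ura3 his3 trp1) were grown to mid-log phase in minimal glucose medium with glutamine (WT-Glu) or with proline (WT-Pro) as the nitrogen source, and dal80Δ cells (MATa ura3 his3 trp1 dal80::kanMX) were grown with proline (dal80-Pro). Glutamine is a preferred nitrogen source, proline a poor one, and Dal80 is a GATA-family repressor of genes that are switched on when nitrogen is poor. Every group had 2 libraries, described by the study as biological replicates, and all groups received uracil, histidine and tryptophan. WT-Pro and dal80-Pro differed in mating type as well as at DAL80, so these cannot be told apart, and dal80-Pro differed from WT-Glu in strain and nitrogen source together. ORF reads per library ranged from 12304015 to 19968312. DAL80 itself had 16.0 and 17.7 scaled reads in WT-Glu, 3537 and 2729 in WT-Pro, and 6.15 and 2.75 in dal80-Pro, which goes with the labels.

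Mitochondrial genes are transcribed by a single-subunit polymerase, Rpo41 with its partner Mtf1, from short promoters into long transcripts that are then cut, spliced and matured. COX1, ATP8 and ATP6 lie on 1 such transcript, OLI1 and VAR1 on another, and COB follows a transfer RNA gene. Nuclear genes supply the other subunits of each complex, along with the activators that let each mitochondrial messenger be translated. Glucose represses respiration in this yeast. Mature yeast mitochondrial messengers carry no stable poly(A) tail and are therefore seen in total RNA rather than in poly(A)-selected RNA.

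Sequences that mark where these transcripts start, where they end, and where the members differ most are shown here from the RefSeq genome, build R64, in which the 19 mitochondrial ORFs have the same starts and ends as in the deposited table. All members are on the plus strand of the mitochondrial genome, which is 85779 bases long with 17.1% G and C. The known core of yeast mitochondrial promoters, ATATAAGTA, was searched on both strands. It had 11 matches on the plus strand and 3 on the minus strand, and 11.7% of all windows of 1000 bases on the plus strand held it. The nearest match upstream of each transcript is shown with the motif in capitals, because the members of 1 transcript share it.
COX1 transcript, MT:13339-13368: ataagtattgATATAAGTAatagatataat
COB transcript, MT:34868-34897: aagaaatattATATAAGTAatatataaaaa
OLI1 transcript, MT:46139-46168: atacacatttATATAAGTAtatatatatat
The motif began 469 bases before the start codon of COX1 and 574 bases before that of OLI1, and 1662 bases before that of COB. For ATP8, ATP6 and VAR1 the nearest match upstream was the one shown for COX1 or OLI1. Upstream of COX2 and COX3 the nearest match was 8374 and 13829 bases away and is not shown.

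The longest string shared by the 600 bases after the stop codon of at least 6 members had 12 bases and was the only string of that length. It is the sequence known as the dodecamer, at which yeast mitochondrial messengers are cut at their 3′ end, and it is in capitals below. It had 9 matches on the plus strand and 2 on the minus strand, and 6.18% of all 600-base windows on the plus strand held it.
COX1, MT:26761-26790: taatataatAATAATATTCTTataaaaata
ATP6, MT:29344-29373: cccccttttAATAATATTCTTttatctaat
COB, MT:43736-43765: taatactttAATAATATTCTTaaaaataat
VAR1, MT:50668-50697: aataaataaAATAATATTCTTaatttttat
COX2, MT:74567-74596: aataattatAATAATATTCTTaaatataat
COX3, MT:80114-80143: tattattatAATAATATTCTTacaaatata
The string began between 63 and 101 bases after the stop codon of COX1, ATP6, COB, COX2 and COX3, and 580 bases after that of VAR1. OLI1 and ATP8 had no match within 600 bases.

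Read density, which is scaled reads per nucleotide of the genomic span, separated the members into a group of 6 and a low pair. In WT-Glu the mean density was 9.59 ± 1.00 (SD, n = 2) for OLI1, 8.75 ± 2.21 for COX2, 7.54 ± 0.985 for ATP6, 6.55 ± 0.375 for COX3, 3.18 ± 0.678 for COX1 and 2.19 ± 0.383 for COB. ATP8 had 0.125 ± 0.0826 and VAR1 had 0.0215 ± 0.000257. The libraries of OLI1, COX2 and ATP6 overlapped in pairs along that order, while each later step in the order separated both libraries of a member from both of the next. In WT-Pro the order of means was the same and no neighbours overlapped. The same order also held in dal80-Pro, where only ATP6 and COX3 overlapped. Densities of COX1 and COB are averages over introns as well as exons: exons are 12.5% of the 12884-nucleotide COX1 span (8 exons) and 16.3% of the 7108-nucleotide COB span (6 exons).

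**Figure D1:**
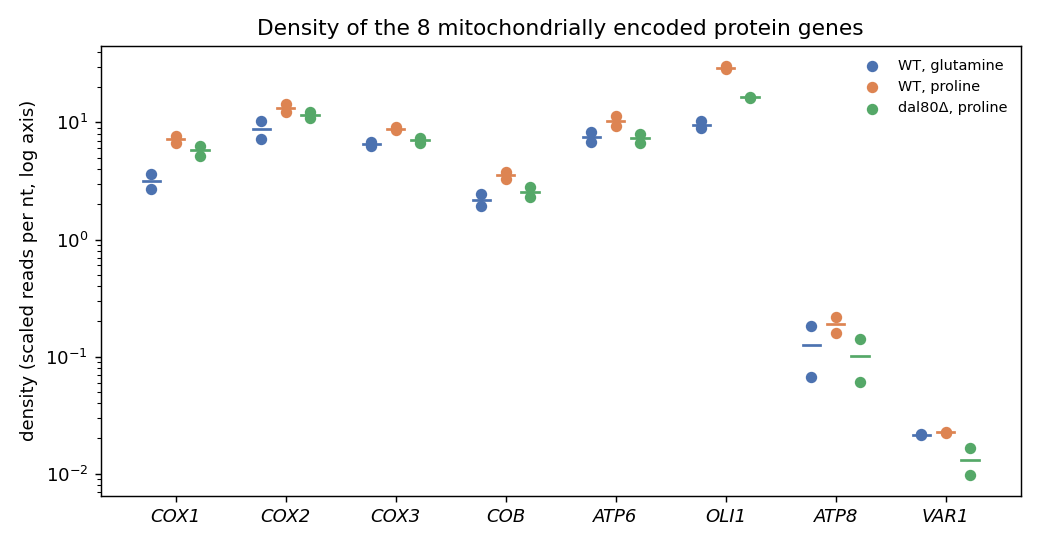
Density (scaled reads per nucleotide, log axis) of each of the 8 members in the 6 libraries; points are libraries, short lines are group means. ATP8 and VAR1 lie below 0.22 in every library, the other 6 members above 1.9, and OLI1 in wild-type proline libraries stands highest, at 28.8 and 30.1.

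ATP8 and VAR1 were therefore measured from few reads. ATP8 had 27 and 10 reads in WT-Glu, 47 and 32 in WT-Pro, and 13 and 38 in dal80-Pro. VAR1 had 26 and 26, 39 and 37, and 17 and 36 in the same order. The exact 95% Poisson interval of the lowest of these, 10 reads, ran from 4.80 to 18.4, and covers counting error only. Both genes share a transcript with an abundant member. The log2 density ratio of OLI1 to VAR1 was 8.89 and 8.70 in WT-Glu, 10.40 and 10.31 in WT-Pro, and 10.73 and 9.94 in dal80-Pro. The log2 density ratio of ATP8 to ATP6 lay between -7.05 and -5.49 in the 6 libraries, with all 3 groups overlapping.

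The low pair also had the lowest G and C content among the coding sequences, 10.4% for VAR1 and 19.05% for ATP8, against 23.7% (ATP6) to 33.3% (OLI1) for the other members; what part base composition or ORF length (147 nucleotides for ATP8) had in their low read number was not tested. Every 50-base stretch of both genes occurred only once in the nuclear and mitochondrial genome. Of the 8 members only COB had repeated stretches, with 97.1% of its 50-base stretches unique. The contrast is seen in the whole OLI1 ORF, with its start and stop codons in capitals, beside the 90-base stretch of VAR1 with the fewest G and C bases, in which any G or C would be in capitals and there are 0.
OLI1, MT:46723-46953: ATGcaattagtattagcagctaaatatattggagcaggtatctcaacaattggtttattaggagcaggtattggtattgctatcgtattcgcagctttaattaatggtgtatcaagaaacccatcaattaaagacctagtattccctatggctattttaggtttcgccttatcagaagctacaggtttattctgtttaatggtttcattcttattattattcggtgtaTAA
VAR1, MT:49376-49465: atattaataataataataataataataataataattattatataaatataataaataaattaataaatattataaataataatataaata

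With proline in place of glutamine, the 8 members took up a larger share of all ORF reads. The share was 0.526% and 0.395% in WT-Glu, 1.85% and 1.55% in WT-Pro, and 1.25% and 0.966% in dal80-Pro. The means were 0.461 ± 0.0921% (SD, n = 2), 1.70 ± 0.213% and 1.11 ± 0.204%, and no libraries of different groups overlapped. WT-Pro was 3.69-fold above WT-Glu and dal80-Pro was 0.652 times WT-Pro. Each of the 3 comparisons gave p = 0.333 in the exact two-sided permutation test, which is the smallest value that 2 libraries against 2 can give. COX1, with its introns, contributed the most reads, 53.4 ± 1.33% of the members' reads in WT-Glu, 61.7 ± 0.0371% in WT-Pro and 63.8 ± 0.752% in dal80-Pro. Without COX1 the share was 0.214 ± 0.0368%, 0.651 ± 0.0810% and 0.401 ± 0.0654%.

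**Figure D2:**
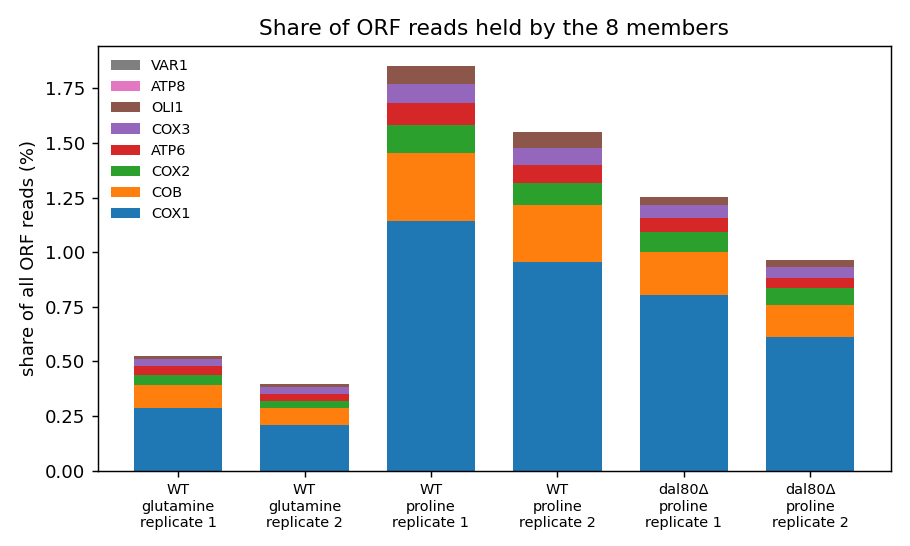
Share of all ORF reads (%) held by the 8 members in each library, stacked by gene. The wild-type proline libraries reach 1.85% and 1.55%, the glutamine libraries 0.526% and 0.395%, and COX1 is the largest piece in every library; ATP8 and VAR1 are too small to see.

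A share of reads depends on what the other genes do. In the deposited scaled reads the median ORF had a log2 fold change of 0.04 between WT-Pro and WT-Glu, whereas after scaling every library to its total of ORF reads that median was 0.96. The corresponding medians were 0.05 and -0.21 for dal80-Pro against WT-Pro, and 0.00312 and 0.66 for dal80-Pro against WT-Glu. The paper's methods name uniquely mapped ORF reads as the total by which tag densities were normalized. The deposited scaled ORF totals nevertheless ranged from 8604252 to 16793037 between libraries. The tests below used the deposited scaling, so that a change is relative to nearly the median ORF. Each scaling multiplies a library by 1 factor and so shifts all ORFs nearly alike. Measured from the median ORF, a member's log2 fold change therefore had to stay nearly the same. It moved by at most 0.04 among the 4 scalings compared, which is no check of the choice of scaling.

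In wild-type cells OLI1 and COX1 rose on proline, 2 of the 8 members. Over all 5645 ORFs tested, 13% were called higher and 15.6% lower in this comparison, a call being an adjusted p of at most 0.01 in limma with at least a 2-fold change. OLI1, the proteolipid that forms the rotor ring of the ATP synthase, had 2379 and 2051 scaled reads in WT-Glu, 6957 and 6649 in WT-Pro, and 3813 and 3768 in dal80-Pro. The 3 groups did not overlap, and the replicates of each group differed far less than the groups. Its log2 fold change between WT-Pro and WT-Glu was 1.62 ± 0.13 (SE; limma, adjusted p = 6.5e-05), or 3.08-fold. VAR1, downstream on the same transcript, had 26.0 and 25.6 scaled reads in WT-Glu, 26.7 and 27.1 in WT-Pro, and 11.6 and 19.8 in dal80-Pro. Its log2 fold change on proline was 0.06, with a 95% interval from -0.67 to 0.79, so that a rise as large as that of OLI1 lies outside the interval. The ratio of OLI1 to VAR1 was higher in both WT-Pro libraries than in both WT-Glu libraries, by 1.56 on the log2 scale.

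COX1, subunit 1 of cytochrome c oxidase, had 47173 and 34821 scaled reads in WT-Glu, 98311 and 86127 in WT-Pro, and 81383 and 67165 in dal80-Pro. The WT-Glu libraries were below all 4 proline libraries. The log2 fold change between WT-Pro and WT-Glu was 1.18 ± 0.27 (SE; limma, adjusted p = 0.0057). The call was lost when any library except WT-Glu replicate 1 was left out of the fit, with limma adjusted p between 0.011 and 0.044, and without WT-Glu replicate 2 the log2 fold change was 0.96.

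The remaining members had positive log2 fold changes on proline without passing the test. COB had 17490 and 13639 scaled reads in WT-Glu against 26842 and 23286 in WT-Pro, a difference of 0.69 on the log2 scale (limma, adjusted p = 0.020). COX2, subunit 2 of the oxidase, had 7802 and 5434 against 10869 and 9308, with 0.63 (limma, adjusted p = 0.029). COX3, subunit 3, had 5522 and 5092 against 7396 and 6919, with 0.43 (limma, adjusted p = 0.027). In these 3 genes both proline libraries were above both glutamine libraries. ATP6, the subunit of the proton channel, had 6425 and 5338 against 8859 and 7330, with 0.46 (limma, adjusted p = 0.053). ATP8 had 27.0 and 9.83 against 32.2 and 23.4, with overlapping libraries and a 95% interval of the log2 fold change from -0.56 to 1.98. In all, the libraries of WT-Pro were above those of WT-Glu for 7 of 8 members, among them VAR1 with a log2 fold change of only 0.06. The share of all ORFs separated in this way is not given here. The members' median log2 fold change was 0.66, against 0.04 over all ORFs tested. When libraries were scaled to total ORF reads instead, 6 of the 8 members were called higher, all but ATP8 and VAR1, but so were 47.1% of all ORFs tested, while 3.35% were called lower.

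**Figure D3:**
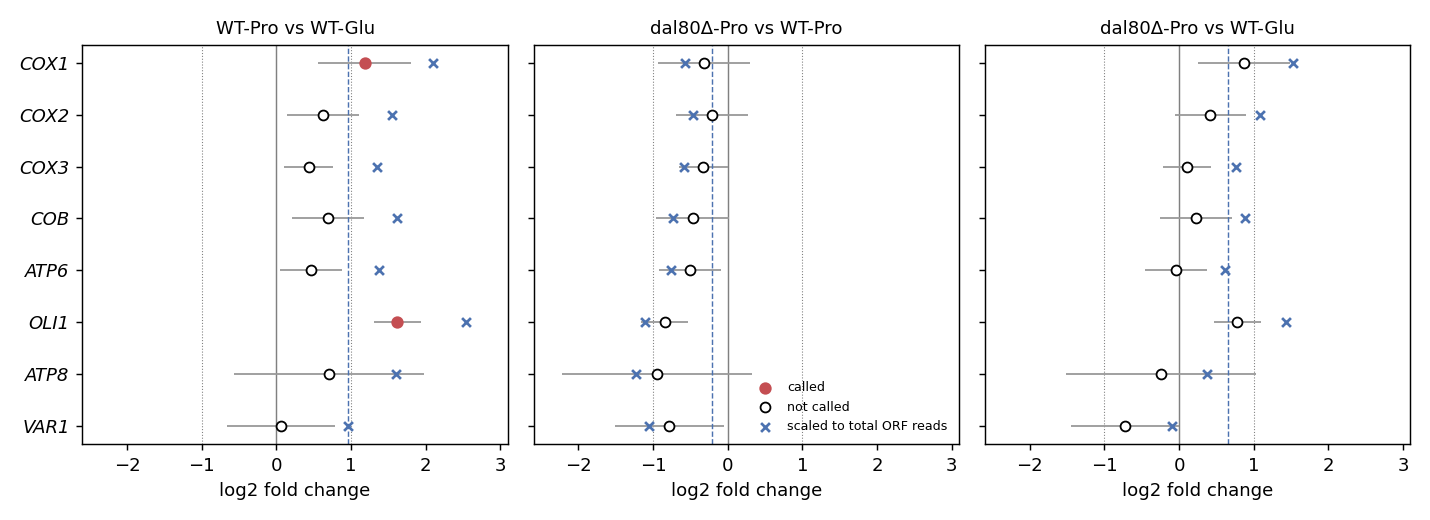
Log2 fold change of each member in the 3 comparisons: circles, deposited scaling, with 95% intervals (filled red where called); crosses, the same after scaling to total ORF reads; blue dashed line, median of all ORFs under that scaling; dotted lines, 2-fold. Only OLI1 (1.62) and COX1 (1.18) are called, both on proline in wild type, and every member lies below 0 in dal80-Pro against WT-Pro.

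Ratios between members differed between groups for some pairs, described here with no test. The log2 density ratio of OLI1 to ATP6, both in the ATP synthase, was 0.32 and 0.38 in WT-Glu, 1.41 and 1.61 in WT-Pro, and 1.05 and 1.30 in dal80-Pro, with no overlap between groups. This pair was not among the ratios planned. The ratio of ATP6 to COX1, genes of the same transcript, was 1.17 and 1.34, then 0.57 and 0.49, then 0.34 and 0.35 in the same order of groups. With only the last segment of COX1 in the denominator (the segments are described next) the ratio of ATP6 was 1.43 and 1.40, 0.96 and 0.95, and 0.88 and 0.78. COB to COX1 was -0.57 and -0.49 in WT-Glu, -1.01 and -1.03 in WT-Pro, and -1.18 in both dal80-Pro libraries. COX2 to COX3 was 0.60 and 0.19, 0.65 and 0.53, and 0.73 and 0.69, so that WT-Glu and WT-Pro overlapped. These ratios do not depend on how libraries are scaled.

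Because COX1 and COB contain introns that encode proteins of their own, the place of the change inside them could be examined. The intron-encoded ORFs begin at the start codon of the host gene and end at successive points, so subtracting 1 count from the next gave separate segments, numbered from the 5′ end; AI5_BETA, which has its own start, was taken out of the last COX1 segment. None of 54 such differences was at or below 0, as counting of all reads within each genomic span would give, although the counting rule is not given in the sources used here. This division was chosen after seeing the data. COX1 segment 1 (MT:13818-16322) and segment 2 (MT:16323-18830) consist almost wholly of introns 1 and 2, with 6.75% and 1.44% exon bases. Segment 3 is also nearly all intron, with 3.26% exon bases. Exons make up 24.6%, 20.5% and 26.0% of segments 4, 5 and 6.

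The density of COX1 segment 1 was 5.59 and 3.65 in WT-Glu, 13.5 and 11.8 in WT-Pro, and 12.03 and 9.73 in dal80-Pro. That of segment 6, at the 3′ end, was 3.05 and 2.59, 5.82 and 4.85, and 4.35 and 3.86. Segment 1 thus had a higher density than segment 6 in every library. Not every intron-rich segment did so. Segment 3 had 1.25 and 0.769 in WT-Glu, 1.61 and 1.42 in WT-Pro, and 1.29 and 1.14 in dal80-Pro, below segment 6 in every library. In the fit with segments, in which 12.9% of 5649 features were called higher on proline, segment 1 rose by 1.48 ± 0.25 on the log2 scale (SE; limma, adjusted p = 0.0014) and segment 2 by 1.32 ± 0.23 (limma, adjusted p = 0.0017). Segments 3 to 6 were not called, with log2 fold changes of 0.62, 0.94, 0.80 and 0.92. Segments 4, 5 and 6 had limma adjusted p of 0.0037, 0.0013 and 0.0025 and missed only the 2-fold limit. The log2 density ratio of segment 1 to segment 6 was 0.87 and 0.50 in WT-Glu, 1.21 and 1.28 in WT-Pro, and 1.47 and 1.33 in dal80-Pro, with no overlap between groups. Segments 1 and 2 held 52.9 ± 2.66% of the COX1 reads in WT-Glu and 61.7 ± 0.974% in WT-Pro, and 68.5% of the COX1 gain in scaled reads. In the comparison of dal80-Pro with WT-Glu, where 11.8% of features were called higher, segment 1 rose by 1.26 (limma, adjusted p = 0.0035) and no other segment was called.

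**Figure D4:**
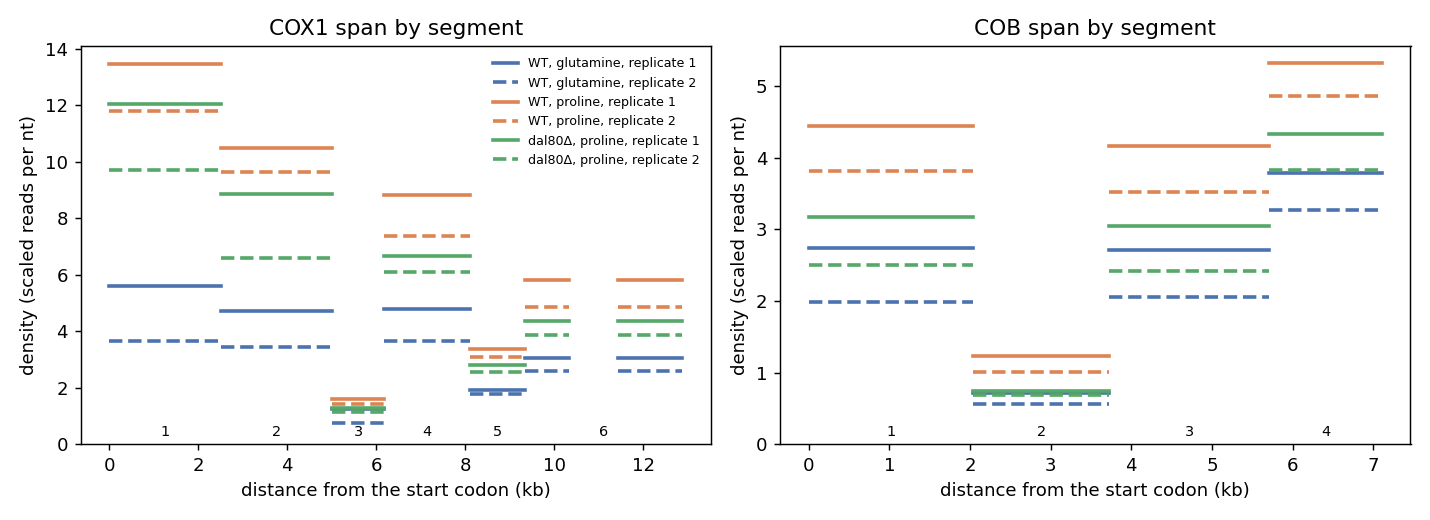
Density (scaled reads per nucleotide) of the numbered segments of COX1 and COB in the 6 libraries against distance from the start codon; solid and dashed lines are replicates, and the gap in COX1 segment 6 is AI5_BETA. COX1 segment 1 goes from 5.59 and 3.65 in WT-Glu to 13.5 and 11.8 in WT-Pro, and in COB segment 4 is the highest and segment 2 the lowest in every library.

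Introns 1 and 2 of COX1 are group II introns, which encode reverse transcriptases that also act in splicing. They begin with gtgcg, as does intron 7, whereas introns 3 to 6 do not. The junctions of the introns that fill segments 1 to 3 are shown with the exon in capitals.
exon 1 to intron 1, MT:13975-13998: AATTATTTAATGgtgcgcctctca
exon 2 to intron 2, MT:16459-16482: TAATGATTTTCTgtgcgccgtttc
exon 3 to intron 3, MT:18980-19003: GGTTTTGGTAACcaaaaaagatat
Spliced messenger and intron RNA were not separated within a segment, since reads across junctions were not used here. Segment 2 has only 36 exon bases in 2508. Its mean density in WT-Pro was 10.07, against 5.34 in segment 6, where exons make up 26.0%. If COX1 exons were covered alike, exon bases could hold only a small part of the segment 2 reads.

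In COB no segment was called. The log2 fold changes on proline were 0.82, 0.82, 0.70 and 0.53 from the 5′ to the 3′ end, and the log2 density ratio of segment 1 to segment 4 was -0.46 and -0.72 in WT-Glu, -0.26 and -0.35 in WT-Pro, and -0.45 and -0.61 in dal80-Pro. Among the 11 other mitochondrial ORFs, 6 were called higher on proline and 0 lower, beside 13% and 15.6% of all ORFs tested. All 11 had an unadjusted p under 0.05, for which the share over all ORFs is not given here. The 6 called were AI1, AI2, AI3, AI4 and AI5_ALPHA of COX1, with log2 fold changes from 1.24 to 1.48, and SCEI, with 1.38. The counts of the called COX1 ORFs include one another, so they are not separate measurements. SCEI is the homing endonuclease in the intron of the large ribosomal RNA. AI5_BETA, BI2, BI3, BI4 and Q0255 had 0.52 to 0.82 and were not called. RPM1, the RNA of mitochondrial RNase P, had 208 and 153 scaled reads in WT-Glu, 465 and 352 in WT-Pro, and 182 and 256 in dal80-Pro; it was not part of the fit.

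Deletion of DAL80 in proline medium gave no call among the members by edgeR, DESeq2 or limma under the deposited scaling, with 3 of 8 at an unadjusted p under 0.05 in limma, while 3.6% of all ORFs tested were called higher and 4.43% lower. Both dal80-Pro libraries were below both WT-Pro libraries for 8 of 8 members. The share of all ORFs separated in this way, or at an unadjusted p under 0.05, is not given here. The members' median log2 fold change was -0.49 against 0.05 over all ORFs. OLI1 came nearest to a call, at -0.84 ± 0.13 on the log2 scale (SE; limma, adjusted p = 0.0038), short of the 2-fold limit. It was the only member with an adjusted p of at most 0.01, and after scaling to total ORF reads its log2 fold change was -1.10 and it was called lower, as were 7.79% of all ORFs under that scaling. ATP8 had -0.95 and VAR1 had -0.78, with 95% intervals from -2.23 to 0.32 and from -1.51 to -0.06. ATP6 had -0.51, COB -0.47, COX3 -0.33, COX1 -0.32 and COX2 -0.21, with limma adjusted p from 0.068 to 0.47. Within each group the members also moved together between replicates: replicate 1 had the higher scaled reads for 8 of 8 members in WT-Glu, 7 in WT-Pro and 6 in dal80-Pro, with median ratios of replicate 1 to 2 of 1.24, 1.15 and 1.12 where nuclear ORFs had 1.02, 0.994 and 0.992. The 8 members are therefore not 8 separate measurements of a condition.

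Against WT-Glu, none of the members was called in dal80-Pro by edgeR, DESeq2 or limma under the deposited scaling. Of all ORFs tested, 11.9% were called higher and 13.4% lower. In limma 2 of 8 members had an unadjusted p under 0.05, for which the share over all ORFs is not given here. Scaled to total ORF reads, COX1 (1.53), OLI1 (1.44) and COX2 (1.08) were called higher, beside 33.5% of all ORFs. This comparison shares its libraries with the other 2. COX1 differed by 0.87 on the log2 scale (limma, adjusted p = 0.024) and OLI1 had 0.78 (limma, adjusted p = 0.0018), and both dal80-Pro libraries were above both WT-Glu libraries for these genes and for COX2 (0.42). COB and COX3 had 0.22 and 0.11 with overlapping libraries. ATP6 had -0.04 and ATP8 -0.24, values that turned to 0.62 and 0.38 under scaling to total ORF reads. VAR1 was lower in both dal80-Pro libraries, with -0.72 on the log2 scale (limma, adjusted p = 0.077).

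Nuclear genes that work with the members were counted in lists by role. Of 9 nuclear subunits of cytochrome c oxidase, 1 was called higher on proline in wild type, COX5B, the alternative subunit 5 known for its use at low oxygen, with 340 and 648 scaled reads in WT-Glu, 1160 and 1102 in WT-Pro, and 744 and 1183 in dal80-Pro (log2 fold change 1.27, limma adjusted p = 0.0091). Its paralog COX5A had a log2 fold change of -0.45 and was not called. Of 9 nuclear bc1 subunits none was called by limma in any comparison under the deposited scaling. At an unadjusted limma p under 0.05 there were 3, 1 and 5 in the 3 comparisons. The share of all ORFs at that unadjusted p is not given here. In dal80-Pro against WT-Glu edgeR called 1 and limma with TMM factors called 1, and scaling to total ORF reads gave 4 calls higher in WT-Pro and 2 in dal80-Pro against WT-Glu. The largest value on proline was -0.97 for COR1, a core protein. Of 14 nuclear ATP synthase subunits 1 was called lower on proline, ATP2, the catalytic beta subunit, with 25969 and 31382 scaled reads in WT-Glu against 10790 and 10494 in WT-Pro (log2 fold change -1.42, limma adjusted p = 0.00036). ATP2 therefore fell in the comparison in which OLI1, of the same enzyme, rose, and in dal80-Pro against WT-Glu ATP2 and ATP1 (-1.32 and -1.06) were called lower. Under scaling to total ORF reads 0 of the 14 were called lower and 3 were called higher in wild type on proline, beside 47.1% of all ORFs called higher and 3.35% lower. The list medians on proline were -0.05, 0.04 and -0.44 for the 3 complexes, against 0.04 over all ORFs tested and 0.66 for the members.

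The list of translation activators and messenger factors had more calls on proline than the lists of subunits of the 3 complexes. Of 19 genes, 5 were called higher and 1 lower on proline in wild type. Over all ORFs tested, 13% were called higher and 15.6% lower. The list median was 0.53. Scaled to total ORF reads, 14 were called higher and 0 lower, beside 47.1% of all ORFs called higher and 3.35% lower. SOV1, a factor for VAR1 expression, had 153 and 114 scaled reads in WT-Glu, 437 and 472 in WT-Pro, and 363 and 339 in dal80-Pro (log2 fold change on proline 1.77, limma adjusted p = 9.6e-05). PET494, an activator of COX3 translation, had 124 and 148, 387 and 378, and 225 and 209, with 1.49 on proline (limma, adjusted p = 0.00011). VAR1 and COX3 themselves were not called in that comparison. NCA3, named for its part in the expression of ATP6 and ATP8, fell on proline by 2.06 on the log2 scale, from 456 and 965 scaled reads to 115 and 218, and was 2.18 higher in dal80-Pro than in WT-Pro (837 and 619.5 scaled reads; limma, adjusted p = 0.0066). It was the only gene of the 7 nuclear lists called in the comparison of the proline groups under the deposited scaling. In dal80-Pro against WT-Glu, 3 of the 19 were called higher, led by CBS1, an activator of COB translation (1.51), and SOV1 (1.40). The 1 called lower was MSS51, the activator of COX1 translation (-1.09). Over all ORFs tested, 11.9% were called higher and 13.4% lower in that comparison.

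Of 31 nuclear proteins of the small mitochondrial ribosomal subunit, the partners of Var1, 4 were called higher and 1 lower on proline, with a median of 0.29; scaled to total ORF reads, 19 were called higher and 0 lower. RSM18 (1.20), MRPS12 (-1.09) and MRP13 (1.08) had the largest changes. In dal80-Pro against WT-Glu 5 were called higher and 2 lower, led by RSM10 (1.54), MRPS12 (-1.35) and RSM18 (1.33). Of 12 genes of mitochondrial RNA splicing and decay, 2 were called higher on proline (10 when scaled to total ORF reads): DSS1, the exoribonuclease of the mitochondrial degradosome, with 342 and 312 scaled reads in WT-Glu against 784 and 648 in WT-Pro (log2 fold change 1.12, limma adjusted p = 0.00029), and MSS18, needed for splicing of a COX1 intron, with 87.0 and 121 against 221 and 210 (1.06, limma adjusted p = 0.0014). Of 7 genes of mitochondrial transcription and DNA maintenance none was called in any comparison by edgeR, DESeq2 or limma under the deposited scaling, with 3, 4 and 4 at an unadjusted p under 0.05 in limma. Against WT-Glu, TMM factors gave 1 call higher in dal80-Pro, and scaling to total ORF reads gave 3 in WT-Pro and 4 in dal80-Pro. RIM1, a DNA-binding protein, had the largest value on proline, -0.93. Between the proline groups, the 6 nuclear lists other than the translation activators had no call by edgeR, DESeq2 or limma under the deposited scaling. They had 2, 1, 5, 7, 4 and 6 genes at an unadjusted p under 0.05 in limma. The order is oxidase, bc1, ATP synthase, ribosome, transcription and splicing. For no comparison is the share of all ORFs at that unadjusted p given here. The largest uncalled values in dal80-Pro against WT-Pro were 0.93 for COX7, -0.54 for CYT1, 0.74 for ATP19, 0.73 for RSM10, 0.74 for RIM1 and -0.71 for CBP2 in the same order of lists. The counts on proline in wild type stand beside 13% and 15.6% of all ORFs called higher and lower on proline. Those in dal80-Pro against WT-Glu stand beside 11.9% and 13.4%. After scaling to total ORF reads, 47.1% of all ORFs were called higher on proline in wild type and 33.5% in dal80-Pro against WT-Glu.

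The nuclear ORFs whose profile over the 6 libraries was closest to the mean profile of the members were YLR456W (Pearson r = 0.992), MET28 (0.990), MLC1 (0.983), PPX1 (0.982) and YPI1 (0.982). Each member had equal weight in that mean on the log2 scale, so ATP8 and VAR1 with their few reads counted as much as COX1. Of 5626 nuclear ORFs, 222 (3.95%) had r over 0.9, and 6 libraries in 3 groups share their scaling, so that the order among them is a description only. MET28, a regulator of sulfur metabolism, had 488 and 362 scaled reads in WT-Glu, 808 and 692 in WT-Pro, and 508 and 482 in dal80-Pro.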

How the data were processed

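The 2 libraries of total RNA per group were depleted of ribosomal RNA, made with a strand-specific kit, sequenced in pairs and mapped by the authors with TopHat to build R64; the counter is not given in the sources used here. The deposited read columns hold whole counts in WT-Glu replicate 1 and, in the other 5 libraries, a scaled signal, counts multiplied by 1 factor per library (0.551 to 0.983); dividing by it gave whole reads for 100% of values (tolerance 1e-06). The pooled mean columns were not used. Scaled ORF totals ranged from 8604252 to 16793037. Of 5795 ORF rows, 4 plasmid ORFs were left out. limma 3.58.1 (R 4.3.3) with trend was fitted on log2(scaled reads + 1) over all 6 libraries and 5645 ORFs passing filterByExpr of edgeR 4.0.16, with Benjamini-Hochberg adjustment. Fold changes are on that scale and understate changes of ATP8 and VAR1. edgeR and DESeq2 1.42.0 on the recovered counts were alternatives, with other scalings, pseudocounts, filters, a replicate block and each library left out. The fit was tested on simulated data. The members and gene lists were chosen with earlier results of these data known. Named were all members, DAL80, up to 3 called genes of a list by size of change (or the largest uncalled one), and the 5 nearest profiles; COX5A, Q0255 and RPM1 were added after seeing values.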

Additional observations from a re-analysis of the deposited data

How the results depend on the processing

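The counts of members called moved most with the scaling. After scaling to totals of ORF reads, or of nuclear ORF reads, 6 members were called in WT-Pro against WT-Glu, 1 in dal80-Pro against WT-Pro and 3 in dal80-Pro against WT-Glu, against 2, 0 and 0; with totals of ORF reads, 47.1% of all ORFs were called higher, 7.79% lower and 33.5% higher in these comparisons. Without a filter on low reads 1 member (OLI1) was called on proline, and 1 when COX1 and COB were represented by their last segments, an alternative chosen after seeing the data. Leaving out 1 library gave 1 to 2 calls on proline in wild type and 0 in the other comparisons; where a group is left with 1 library, it is assumed to vary like the others. COX1 was the call lost each time. TMM factors, edgeR, DESeq2, both other pseudocounts and fits of only the groups compared gave 2, 0 and 0. So did the replicate block. Over the ORFs tested, deviations of same-numbered libraries had correlations of -0.24, 0.18 and 0.03. The members themselves were mostly higher in replicate 1: 8, 7 and 6 of 8 in WT-Glu, WT-Pro and dal80-Pro. No source says that the numbers mark a shared batch. In the proline comparison OLI1 was called under every alternative run. The member share without COX1 was 0.214%, 0.651% and 0.401% in WT-Glu, WT-Pro and dal80-Pro. With all 8 members, leaving out 1 library of a group only returns the share of the other library. Those shares were 0.395% and 0.526%, 1.55% and 1.85%, and 0.966% and 1.25%, as given above. Signs differed from those reported in 10 of 128 values in dal80-Pro against WT-Glu, for ATP6 and ATP8. Depth limits ATP8 and VAR1, with 10 to 47 reads a library.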
